A study of Homo sapiens with 20 samples.

Results

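RNA of BEAS-2B cells, human bronchial epithelium immortalised for culture, was sequenced and 6 libraries were compared to ask what remained of a short nickel exposure after a further period in culture. The 2 libraries titled Ni_3D+14D, which the title gives as 3 days of nickel and 14 days more, were set against the 4 libraries titled Control_3D. They were chosen by their titles, and are 6 of the 20 libraries of the series. The other 14 come from cells exposed for 3 days or 6 weeks, from their controls and from clones. All cells were grown in Dulbecco's modified Eagle's medium, and nickel was given as nickel chloride at several concentrations. The labels give neither the concentration used for Ni_3D+14D nor whether nickel was taken away for the further 14 days. No control kept for the same further time was analysed here, so past nickel and time in culture cannot be told apart. Whether the replicates came from separate cultures is not stated, and p-values then cover the spread between these libraries alone, which can be technical.

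Nickel ions can displace iron from the enzymes that hydroxylate hypoxia-inducible factor, so that the factor is spared from degradation and its targets are transcribed as in hypoxia. Nickel also reaches chromatin enzymes that depend on iron, and long exposure of BEAS-2B cells has been used to study epithelial-mesenchymal transition (EMT), the loss of cell junctions in favour of a migratory, matrix-producing state. Cholesterol synthesis, another pathway followed below, is a chain of enzymes from acetyl units through mevalonate and squalene to cholesterol. Its genes are driven by the transcription factor SREBP-2, which is cut free and enters the nucleus when sterol in the membrane is low.

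Totals were 22292199 and 30903145 reads in Ni_3D+14D, 26529403 and 8609243 reads in Control_3D replicates 3 and 4, and 45764825 and 20538658 reads in replicates 1 and 2. The 4 controls fell into these pairs. Across genes, log2 levels correlated at 0.9912 between replicates 3 and 4, at 0.9893 between replicates 1 and 2, and at 0.9668 to 0.9739 between a library of one pair and one of the other. Both Ni_3D+14D libraries (0.9925 with each other) lay at 0.9721 to 0.9776 with replicates 3 and 4, and at 0.9816 to 0.9873 with replicates 1 and 2. Each result is therefore given against all 4 controls, against each pair and against the mean of both pairs. No label explains the split, and which cultures or runs the pairs were was not tested. The control column of the authors' deposited table for this comparison equals the mean of replicates 3 and 4 within 1% in 16847 of 16847 genes with a control value above 0. Control_3D replicate 1 also held transcripts of oestrogen-responsive breast-type genes, among them TFF1 at 20.1 CPM (CPM, read counts scaled to the size of each library after correction for its composition) and ESR1 at 3.52 CPM. Both had no reads in Ni_3D+14D, and at most 0.0383 CPM in the other 3 controls. Counted by group, 7 of 18 such genes reached 1 CPM in Ni_3D+14D, 5 in replicates 3 and 4 and 15 in replicates 1 and 2. These counts do not separate replicate 1 from replicate 2.

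The bronchial label was checked against epithelial genes. Keratins KRT8 and KRT18 were at 483 and 255 CPM or more in both Ni_3D+14D libraries and at 506 and 193 CPM or more in all 4 controls. CDH1 (E-cadherin, the main epithelial junction protein) was at 0.394 and 0.487 CPM in Ni_3D+14D, 0.421 and 0.117 CPM in replicates 3 and 4, and 11.4 and 0.245 CPM in replicates 1 and 2. CDH2 (N-cadherin) and VIM (vimentin), mesenchymal genes, were high throughout, with VIM at 2481 and 2465 CPM in Ni_3D+14D and 2345 to 2765 CPM in the controls. Few airway markers reached 1 CPM. Of 12 secretory and ciliated airway genes, 3 reached 1 CPM in each group, and the list summed to 10.6 to 10.8 CPM in Ni_3D+14D, 6.31 to 9.38 CPM in replicates 3 and 4, and 7.87 to 8.09 CPM in replicates 1 and 2. Of 11 basal airway genes, 4 reached 1 CPM in each group and KRT6A and DAPL1 had no reads, with sums of 200 to 238 CPM in Ni_3D+14D, 44.1 to 90.3 CPM in replicates 3 and 4, and 198 to 239 CPM in replicates 1 and 2. Of 12 immune markers 4 had no reads in any of the 6 libraries, CD3D, CD3E and MS4A1 among them. Of the same 12, 4 reached 1 CPM in Ni_3D+14D and 3 in each control pair, and they summed to 50.4 to 63.3 CPM in Ni_3D+14D, 71.7 to 78.8 CPM in replicates 3 and 4, and 42.4 to 44.9 CPM in replicates 1 and 2.

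The number of genes that differed depended on which controls were used. Of 14927 genes tested none passed against all 4 controls (0% called) in the quasi-likelihood test of edgeR, at an adjusted p (Benjamini-Hochberg) under 0.05. The unadjusted p was under 0.05 for 613 genes (4.11%), against 746.4 for a test with no change, the smallest adjusted p by edgeR was 0.264, and DESeq2 called 16 (0.107%). Against replicates 3 and 4 edgeR called 188 genes (1.26%), 176 up (1.18%) and 12 down (0.0804%). Against replicates 1 and 2 edgeR called none (0%), with 740 genes (4.96%) at an unadjusted p under 0.05 and 29 (0.194%) called by DESeq2. Against the mean of both pairs edgeR called 23 genes up (0.154%) and 0 down. DESeq2 called 569 genes (3.81%) and 126 genes (0.844%) in the comparisons with replicates 3 and 4 and with the mean of both pairs. The spread in these tests comes from all 14 libraries that are not clones. With the spread taken from the 6 libraries alone, edgeR called 2032 genes (14.2%) against replicates 3 and 4, 425 (2.98%) against replicates 1 and 2, 872 (6.11%) against the mean of both pairs and 0 against all 4. Those called up were 9.28%, 2.35% and 4.84% of 14263 genes in the first 3 of these, and those called down 4.97%, 0.631% and 1.28%. The median log2 fold change of all genes lay between -0.01 and 0.02 in the 4 comparisons.

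The 2 genes of cholesterol synthesis called against replicates 3 and 4, FDPS and HMGCS1, have these 250 bases before their start in RefSeq's GRCh38.p14, given because members of this pathway stood higher in Ni_3D+14D than both pairs of controls. Capitals mark CCAAT, the box bound by the factor NF-Y, read on either strand (ATTGG on the reverse). FDPS lies at chr1:155308616-155308865 on the + strand and HMGCS1 at chr5:43313413-43313662 on the − strand.
FDPS: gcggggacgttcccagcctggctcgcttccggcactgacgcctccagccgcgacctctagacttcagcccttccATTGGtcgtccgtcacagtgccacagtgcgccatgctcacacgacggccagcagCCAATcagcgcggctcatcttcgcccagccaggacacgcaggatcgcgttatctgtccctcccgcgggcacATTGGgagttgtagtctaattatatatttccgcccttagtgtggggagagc
HMGCS1: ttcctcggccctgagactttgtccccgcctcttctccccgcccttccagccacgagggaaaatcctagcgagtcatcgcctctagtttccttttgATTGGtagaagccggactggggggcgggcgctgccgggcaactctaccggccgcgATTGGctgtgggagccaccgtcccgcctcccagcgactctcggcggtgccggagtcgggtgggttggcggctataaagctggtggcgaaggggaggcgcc
FDPS holds 3 such boxes, from 176 to 51 bases before the start, and HMGCS1 holds 2, from 155 to 100 bases before it. Promoters were found for 19 of the 24 genes of the pathway. CCAAT was present in 13 of these 19 and in 32.0% of 35116 promoters of the same length. The GC box GGGCGG, whose first bases can overlap the end of ATTGG, was present in 15 of 19 and in 42.6% of all. TCACNCCAC, the letters of the sterol regulatory element, was present in 0 of 19 and in 0.883% of all, which says only that these letters are not in these windows. Both strands were searched, and a match is a description of letters and not a bound site.

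Genes of cholesterol synthesis stood higher in Ni_3D+14D than in the controls of both pairs, but few passed the test one by one. Of the 24 genes, all tested, 19 had both Ni_3D+14D libraries above all 4 controls, beside 11.1% of all genes tested. The median log2 fold change of the list was 0.60 against all 4 controls, 0.64 against replicates 3 and 4, 0.60 against replicates 1 and 2 and 0.61 against the mean of both pairs. By edgeR with Benjamini-Hochberg adjustment 0, 2, 0 and 1 of the 24 rose in these comparisons and 0 fell in any. Of all genes this fit called 0%, 1.18%, 0% and 0.154% up. With the spread of the 6 libraries alone the test called 0, 15, 11 and 17 up and 0 down. Of all genes it called 0%, 9.28%, 2.35% and 4.84% up. DESeq2 called 2 of the 24 up against all 4 controls, beside 0.107% of all genes in either direction. This pathway was known to stand out from earlier results of these data, so its count is a description and not separate evidence.

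FDPS makes farnesyl diphosphate, the last unit before squalene and the source of lipid anchors for small GTPases. It had 427 and 381 CPM in Ni_3D+14D, 195 and 210 CPM in replicates 3 and 4, and 224 and 203 CPM in replicates 1 and 2. Both Ni_3D+14D libraries stood above all 4 controls, which lay close together. FDPS (chr1:155278705-155290457, + strand, hg19) rose 1.94-fold against the mean of both pairs (log2 fold change 0.96, SE 0.15, Benjamini-Hochberg adjusted p = 0.0232 in edgeR). Against replicates 3 and 4 it rose 2.00-fold (adjusted p = 0.0194 by the same edgeR test). The 1.89-fold difference from replicates 1 and 2 and the log2 fold change of 0.96 from all 4 controls did not pass (Benjamini-Hochberg adjusted p = 0.333 and 0.264 in edgeR). DESeq2 did call FDPS up against all 4 controls (adjusted p = 2.18e-06). Leaving out any 1 of the 6 libraries ended the call against the mean of both pairs, with log2 fold changes from 0.87 to 1.03.

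The enzymes before FDPS make and shorten mevalonate. HMGCS1, which makes the precursor of mevalonate, had 125 and 134 CPM in Ni_3D+14D, 32.3 and 32.5 CPM in replicates 3 and 4, and 62.5 and 72.6 CPM in replicates 1 and 2. The groups did not overlap, and the lowest values were those of replicates 3 and 4. HMGCS1 rose 4.01-fold against replicates 3 and 4 (log2 fold change 2.00, SE 0.38, Benjamini-Hochberg adjusted p = 0.0257 in edgeR) and lost this call when any 1 of the 4 libraries was left out. Against replicates 1 and 2 the log2 fold change was 0.94 (SE 0.37) and did not pass, while it passed in edgeR with the spread of the 6 libraries (Benjamini-Hochberg adjusted p = 0.00849). MVD, the decarboxylase that yields isopentenyl diphosphate, had 84.2 and 72.9 CPM in Ni_3D+14D against 45.0 to 54.6 CPM in the 4 controls, and IDI1, its isomerase, 62.0 and 73.3 CPM against 36.1 to 53.4 CPM. Neither passed in any comparison with the spread of 14 libraries. MVK and PMVK, the kinases between, had log2 fold changes of 0.37 and 0.08 against the mean of both pairs.

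After squalene the pathway closes and trims the sterol rings. SQLE, the epoxidase and a rate-limiting step, had 106 and 103 CPM in Ni_3D+14D, 56.2 and 44.2 CPM in replicates 3 and 4, and 84.6 and 65.0 CPM in replicates 1 and 2, with a log2 fold change of 1.05 (SE 0.24, Benjamini-Hochberg adjusted p = 0.0561 in edgeR) against replicates 3 and 4. MSMO1, a demethylase of lanosterol's products, had 55.8 and 53.6 CPM in Ni_3D+14D, 23.9 and 20.8 CPM in replicates 3 and 4, and 25.1 and 34 CPM in replicates 1 and 2. Both Ni_3D+14D libraries of both genes stood above all 4 controls. CYP51A1, FDFT1 and DHCR7 had log2 fold changes of 0.84 (SE 0.21), 0.78 (SE 0.18) and 0.80 (SE 0.18) against the mean of both pairs. Their fold changes against the pairs lay close together, as the plot of both shows. TM7SF2, a sterol reductase, was the 1 member negative against replicates 3 and 4, and it was positive against replicates 1 and 2. It had 42.1 and 31.3 CPM in Ni_3D+14D, 47.4 and 53.8 CPM in replicates 3 and 4, and 18.5 and 19.0 CPM in replicates 1 and 2. Another 4 members were negative against replicates 1 and 2 alone, with -0.26 the lowest log2 fold change. GGPS1 and LBR had log2 fold changes of 0.04 and -0.10 against the mean of both pairs.

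**Figure D1:**
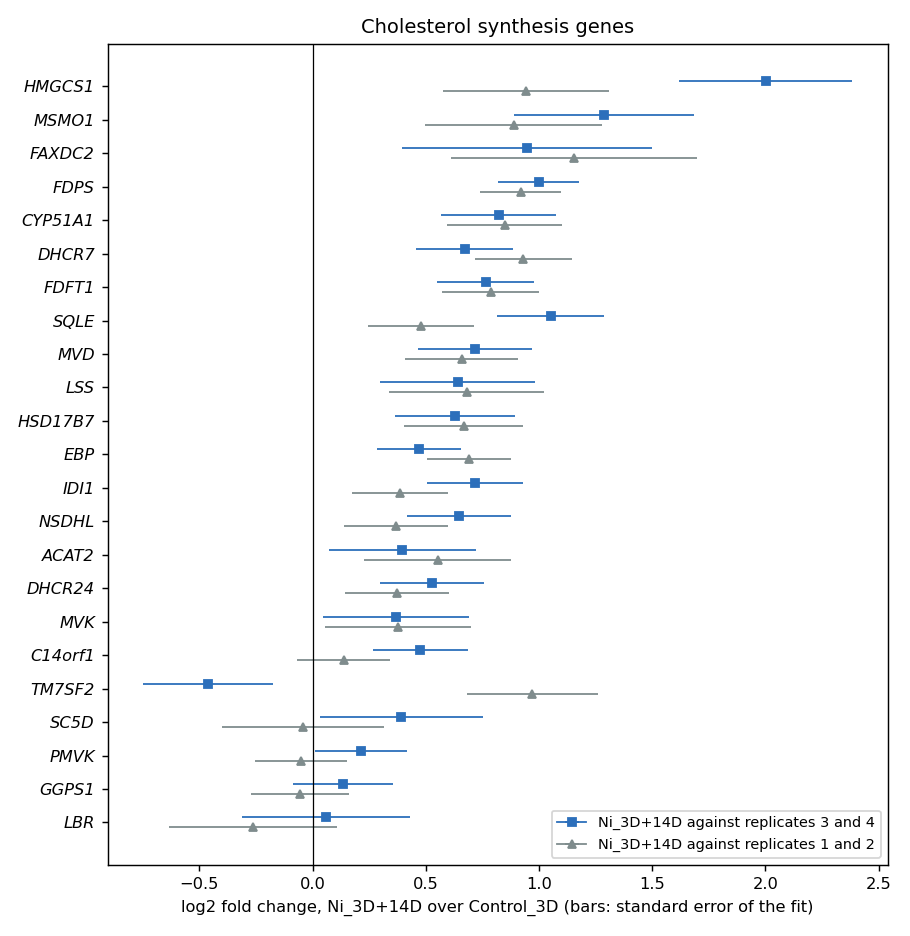
Log2 fold change of Ni_3D+14D over Control_3D replicates 3 and 4 (squares) and over replicates 1 and 2 (triangles) for 23 of the 24 genes of cholesterol synthesis, with the standard error of the fit; genes run from the highest to the lowest value against the mean of both pairs. Against replicates 3 and 4, 22 of 23 points lie right of 0, and against replicates 1 and 2, 19 of 23. HMGCS1 reaches 2.00 against replicates 3 and 4, and TM7SF2 alone lies left of 0 there.

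The uptake and control genes of the same pathway had a median log2 fold change of 0.46 over 16 tested genes against the mean of both pairs. With the spread of 14 libraries edgeR called none in any of the 4 comparisons. The fit of the 6 libraries alone called 7 up and 1 down (SREBF1) against replicates 3 and 4. Of all genes it called 9.28% up and 4.97% down there. Against replicates 1 and 2 this fit called 4 up and 0 down, beside 2.35% and 0.631%. In all, 10 of 16 had both Ni_3D+14D libraries above all 4 controls, beside 11.1% of all genes. INSIG1, which holds the SREBP complex in the endoplasmic reticulum, had 144 and 134 CPM in Ni_3D+14D against 62.2 to 76.9 CPM in the controls. SREBF2, which encodes SREBP-2, had 585 and 501 CPM in Ni_3D+14D against 318 to 381 CPM in the controls, while SREBF1 had 245 and 189 CPM in Ni_3D+14D, 327 and 463 CPM in replicates 3 and 4, and 155 and 167 CPM in replicates 1 and 2. Fatty acid synthesis, driven mainly by the product of SREBF1, had a median log2 fold change of 0.10 over 19 genes. FASN and ACLY differed from the mean of both pairs by -0.12 and 0.05 on the log2 scale. With the spread of 14 libraries ACSS2, which activates acetate, was the 1 member called up against replicates 3 and 4 (log2 fold change 1.0, SE 0.19, Benjamini-Hochberg adjusted p = 0.025 in edgeR). The share of all genes called up there was 1.18%. With the spread of the 6 libraries edgeR called 4 up there (ACSL3, ACSS2, FADS2 and SCD), beside 9.28% of all genes. Against replicates 1 and 2 that fit called 2 up (ACSS2 and FADS2), beside 2.35%. It called 0 down against either pair.

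Beside FDPS, few of the 23 genes called against the mean of both pairs differed alike from each pair. Of the 23, 12 (0.0804% of genes tested) had both Ni_3D+14D libraries above all 4 controls. LRIG1, a membrane protein that restrains growth factor receptors, had 88.1 and 68.6 CPM in Ni_3D+14D, 37.9 and 33.9 CPM in replicates 3 and 4, and 44.8 and 40.9 CPM in replicates 1 and 2. DESeq2 called LRIG1 up against all 4 controls (adjusted p = 4.95e-05). LRIG1 (chr3:66429221-66550845, − strand, hg19) rose 2.00-fold against the mean of both pairs (log2 fold change 1.0, SE 0.15, Benjamini-Hochberg adjusted p = 0.0213 in edgeR), a call lost when any 1 of the 6 libraries was left out. PDPN (podoplanin, a mucin-type protein of alveolar and lymphatic cells) had 26.5 and 22.3 CPM in Ni_3D+14D, 0.306 and 0.469 CPM in replicates 3 and 4, and 14.5 and 12.3 CPM in replicates 1 and 2. Its log2 fold change was 6.08 (SE 0.62) from replicates 3 and 4 and 0.86 (SE 0.43) from replicates 1 and 2. The call of PDPN against the mean of both pairs (log2 fold change 3.47, SE 0.41, Benjamini-Hochberg adjusted p = 0.00385 in edgeR) was lost without replicate 3 (adjusted p = 0.112 by the same edgeR test).

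The other genes of this kind also had most of their difference from replicates 3 and 4. RPS6KA2, a kinase downstream of ERK, had 10.2 and 10.2 CPM in Ni_3D+14D, 0.153 and 0.352 CPM in replicates 3 and 4, and 4.68 and 4.12 CPM in replicates 1 and 2. SNRPN, which encodes a splicing protein from an imprinted locus, had 19.0 and 20.5 CPM in Ni_3D+14D, 0.0383 and 0.352 CPM in replicates 3 and 4, and 13.5 and 14.4 CPM in replicates 1 and 2. SNURF has the same coordinates (chr15:25200135-25223729, + strand, hg19) and nearly the same counts, so the reads of these genes cannot be told apart and they count as 1 signal. DENND2A and GPR176 had log2 fold changes of 2.96 and 2.18 from replicates 3 and 4, and 1.14 and 0.25 from replicates 1 and 2. ITGA4, an integrin chain called against the mean of both pairs, had 14.2 and 16.9 CPM in Ni_3D+14D, 0.306 and 0.352 CPM in replicates 3 and 4, and 15.9 and 20.0 CPM in replicates 1 and 2, so the nickel libraries overlapped 1 pair.

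Further genes are those with the smallest unadjusted p against all 4 controls, where edgeR called none of them. SRGN, a proteoglycan core protein, had 88.1 and 101 CPM in Ni_3D+14D against 41.4 to 50.1 CPM in the 4 controls, and TUBB2B, a beta-tubulin, 70.9 and 62.9 CPM against 30.5 to 41.4 CPM. PDE4DIP, an anchoring protein of the centrosome and Golgi, had 487 and 557 CPM in Ni_3D+14D against 226 to 332 CPM in the controls. On the low side IPO4, an importin, had 51.5 and 61.4 CPM in Ni_3D+14D against 96.6 to 120 CPM, and RPL22L1, a ribosomal protein paralog, 9.11 and 13 CPM against 17.0 to 32.4 CPM. PEMT, which makes phosphatidylcholine by methylation, had 26.1 and 26.1 CPM in Ni_3D+14D against 36.4 to 60.2 CPM, and GEMIN4, of the SMN complex, 114 and 124 CPM against 147 to 214 CPM. Some of these genes were called by other tests or against fewer controls. Against all 4 controls DESeq2 called SRGN, TUBB2B and PDE4DIP up (adjusted p = 0.00642, 0.00143 and 0.00734). Against replicates 3 and 4 edgeR called SRGN and PDE4DIP up (log2 fold change 1.13 and 1.01, Benjamini-Hochberg adjusted p = 0.0378 and 0.0284), and both calls were lost when any 1 of these 4 libraries was left out. The plot draws only genes whose nickel libraries lie above or below all 4 controls. Their clearance from both pairs was therefore set by the choice of genes.

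**Figure D2:**
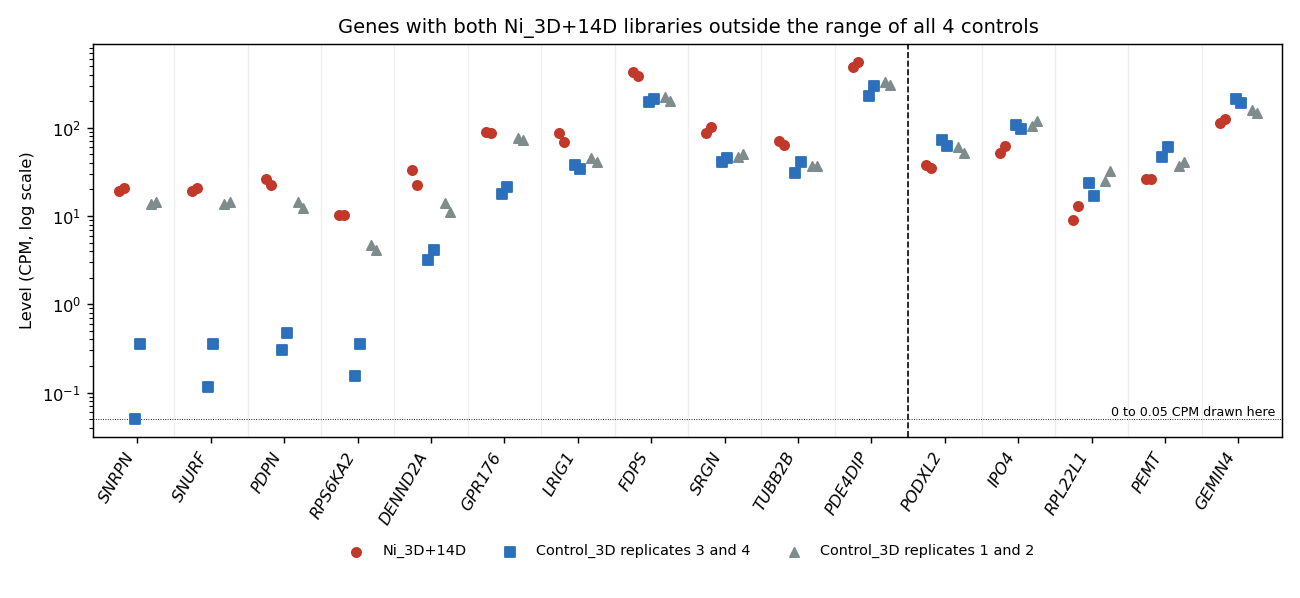
Level in CPM (log scale) in both Ni_3D+14D libraries (circles), Control_3D replicates 3 and 4 (squares) and replicates 1 and 2 (triangles), 1 point a library, for genes above (left of the dashed line) or below (right) all 4 controls. FDPS, LRIG1, SRGN, TUBB2B and PDE4DIP differ alike from both pairs, while SNRPN, SNURF, PDPN and RPS6KA2 are under 0.5 CPM in replicates 3 and 4 alone.

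Many genes that differed from replicates 3 and 4 had few reads in those libraries. The 176 that rose had a median level of 8.87 CPM in Ni_3D+14D, 0.8 CPM in replicates 3 and 4, and 9.22 CPM in replicates 1 and 2. In 88 of them both replicates 3 and 4 were under 1 CPM, and in 20 both had no reads. Against replicates 1 and 2, a comparison that shares the Ni_3D+14D libraries, the same 176 genes had a median log2 fold change of -0.03 and a range from -1.51 to 1.79. The smallest Benjamini-Hochberg adjusted p among them was 0.333 in edgeR, 17 differed by more than 1 on the log2 scale, and 23 had an unadjusted p under 0.05 by edgeR. The 12 that fell had medians of 3.86 CPM in Ni_3D+14D, 14 CPM in replicates 3 and 4, and 4.28 CPM in replicates 1 and 2. These 12 had a median log2 fold change against replicates 1 and 2 of -0.04 and a range from -3.03 to 3.28, 2 differed by more than 1 on the log2 scale, and 3 had an unadjusted p under 0.05 by edgeR. Both sets were chosen for their difference from replicates 3 and 4.

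EYA2, a transcriptional coactivator and phosphatase, had 11.8 and 8.93 CPM in Ni_3D+14D, no reads in replicates 3 and 4, and 15.5 and 15.0 CPM in replicates 1 and 2. Against a floor of 3 reads over replicates 3 and 4 it was at least 117-fold higher in Ni_3D+14D (Benjamini-Hochberg adjusted p = 0.0085 in edgeR). MGMT, the repair enzyme that removes alkyl groups from guanine, had 5.96 and 6.56 CPM in Ni_3D+14D, no reads in replicates 3 and 4, and 11.5 and 8.72 CPM in replicates 1 and 2, and was at least 72.8-fold higher against the same floor. TRIM58, OSBPL6, NCAM1 (a neural adhesion molecule) and GALC (a lysosomal galactosidase) had no reads in replicates 3 and 4 either, and were at least 110-fold, 81.9-fold, 65.5-fold and 64.7-fold higher in Ni_3D+14D. In replicates 1 and 2 these 4 genes lay between 4.02 and 19.5 CPM. MARK1, a microtubule-affinity kinase, had 13.5 and 11.3 CPM in Ni_3D+14D and 1 read in replicates 3 and 4, a ratio of 424 (95% counting interval 75.9 to 16800). CADM3, an adhesion molecule, had 45.8 and 29.1 CPM in Ni_3D+14D, 0.153 and 0 CPM in replicates 3 and 4, and 56.6 and 34.9 CPM in replicates 1 and 2.

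Of the genes that fell, BRSK2, a kinase of neuronal polarity, had 5.08 and 4.61 CPM in Ni_3D+14D, 19.8 and 17.9 CPM in replicates 3 and 4, and 4.59 and 5.24 CPM in replicates 1 and 2 (log2 fold change -1.96, SE 0.33, Benjamini-Hochberg adjusted p = 0.0127 in edgeR against replicates 3 and 4). KCNK5, a potassium channel, POU4F1, a homeodomain factor, and AP1M2, an epithelial clathrin adaptor, had log2 fold changes of -2.31, -1.68 and -1.54 there, and -0.48, -0.34 and 0.07 against replicates 1 and 2. P2RX5, NDUFV2 and CTXN1 had -1.21, -1.03 and -1.29 against replicates 3 and 4 and -0.06, -0.14 and 0.62 against replicates 1 and 2. PODXL2, a sialomucin, was the 1 named fall below all 4 controls, with 37.5 and 35.3 CPM in Ni_3D+14D, 72.1 and 61.5 CPM in replicates 3 and 4, and 60.2 and 51.2 CPM in replicates 1 and 2. Leaving out either Ni_3D+14D library, or either of replicates 3 and 4, ended every call of a fall against these replicates.

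**Figure D3:**
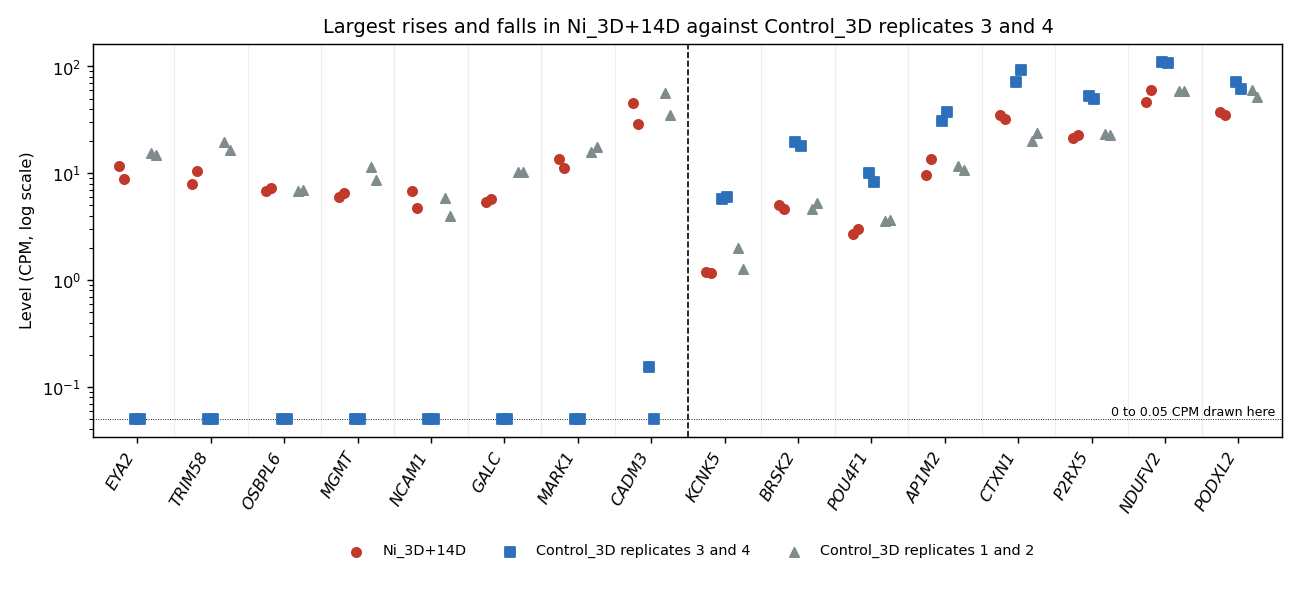
Level in CPM (log scale) in Ni_3D+14D (circles), Control_3D replicates 3 and 4 (squares) and replicates 1 and 2 (triangles), 1 point a library, for the 8 largest rises (left of the dashed line) and 8 largest falls (right) against replicates 3 and 4. EYA2, TRIM58, OSBPL6, MGMT, NCAM1 and GALC have no reads in replicates 3 and 4 and are between 4.02 and 19.5 CPM in replicates 1 and 2.

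Of the EMT genes, ZEB1 and FN1 separated the pairs of controls. ZEB1, a repressor of epithelial genes, had 10.4 and 11.8 CPM in Ni_3D+14D, 1.03 and 1.76 CPM in replicates 3 and 4, and 11.9 and 12.4 CPM in replicates 1 and 2. It rose against replicates 3 and 4 (log2 fold change 3.07, SE 0.37, Benjamini-Hochberg adjusted p = 0.00141 in edgeR), a call lost without replicate 3 (adjusted p = 0.0827 by the same edgeR test). Against replicates 1 and 2 the log2 fold change of ZEB1 was -0.13 (SE 0.32). FN1 (fibronectin, a matrix protein) had 1043 and 1164 CPM in Ni_3D+14D, 159 and 102 CPM in replicates 3 and 4, and 3185 and 3110 CPM in replicates 1 and 2. The nickel libraries lay between the pairs. FN1 rose against replicates 3 and 4 (log2 fold change 3.08, SE 0.32, Benjamini-Hochberg adjusted p = 0.000453 in edgeR). Against replicates 1 and 2 it had a log2 fold change of -1.51 (SE 0.30), which did not pass (adjusted p = 0.333 by edgeR) and passed as a fall with the spread of the 6 libraries (Benjamini-Hochberg adjusted p = 0.00564 in edgeR). ZEB2 had 88.2 and 97.6 CPM in Ni_3D+14D and 83.1 to 116 CPM in the controls, and SNAI2 1.18 and 1.56 CPM in Ni_3D+14D and 0.352 to 3.63 CPM in the controls. EPCAM, an epithelial adhesion molecule, had 2.80 and 2.31 CPM in Ni_3D+14D and 2.03 to 5.97 CPM in the controls, with the highest value in replicate 1. The authors' deposited table, which used replicates 3 and 4, gives ZEB1 a log2 ratio of 2.1 and FN1 one of 2.81.

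Matrix and junction genes were split in the same way. Of 25 collagen genes tested edgeR called 4 up against replicates 3 and 4 (COL1A2, COL5A1, COL5A2 and COL6A2) and 0 down, beside 1.18% and 0.0804% of all genes. With the spread of the 6 libraries it called 14 of 24 up and 1 down (COL1A1) there, beside 9.28% and 4.97%. The same fit called 1 up (COL4A5) against replicates 1 and 2, beside 2.35%. The median log2 fold change of the list was 0.81 against replicates 3 and 4. It was -0.05 against replicates 1 and 2, where edgeR called 0 with the spread of 14 libraries. COL5A2, a fibrillar collagen chain, had 15.6 and 16.3 CPM in Ni_3D+14D, 1.19 and 1.17 CPM in replicates 3 and 4, and 11.9 and 11 CPM in replicates 1 and 2. COL1A1 had 2423 and 2880 CPM in Ni_3D+14D, 4362 and 3491 CPM in replicates 3 and 4, and 2450 and 1911 CPM in replicates 1 and 2. Epithelial genes did not go the other way: of 47 tested edgeR called 3 up (DSP, ESRP2 and MAP7) and 1 down (AP1M2) against replicates 3 and 4, beside 1.18% and 0.0804% of all genes, and 0 against replicates 1 and 2. In the fit of the 6 libraries alone it called 8 up and 2 down (AP1M2 and PKP3) of 41 against replicates 3 and 4. All genes in this fit were called at 9.28% up and 4.97% down there. Against replicates 1 and 2 it called 1 up (CLDN1), beside 2.35% of all genes. DSP, the desmosome plaque protein, had 57.2 and 44.3 CPM in Ni_3D+14D, 2.41 and 1.06 CPM in replicates 3 and 4, and 54.1 and 60.8 CPM in replicates 1 and 2. Beside these, fibroblast and mesenchymal genes summed to 16500 to 18900 CPM in Ni_3D+14D, 13700 to 15800 CPM in replicates 3 and 4, and 19300 to 21100 CPM in replicates 1 and 2, and epithelial genes to 2350 to 2790, 2380 to 2560 and 2810 to 2960 CPM in the same groups. In bulk RNA fewer cells of a type and less RNA per cell cannot be told apart, and their part in these results was not tested.

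None of 8 named genes known to answer nickel, hypoxia or metal was called in any of the 4 comparisons with the filter and the spread of 14 libraries, but this turned on these settings. Without the filter, and at nearly the same fold changes, edgeR called NDRG1, CA9, DDIT4 and MT2A up against the mean of both pairs (Benjamini-Hochberg adjusted p = 2.2e-15, 8.84e-11, 4.52e-07 and 0.000831). With the spread of the 6 libraries alone edgeR called MT2A and PGK1 up there (Benjamini-Hochberg adjusted p = 0.00211 and 0.0198). NDRG1, a hypoxia-induced gene and a long-used marker of nickel exposure, had 297 and 247 CPM in Ni_3D+14D, 60.6 and 125 CPM in replicates 3 and 4, and 41.0 and 81.5 CPM in replicates 1 and 2. Both nickel libraries stood above all 4 controls, which differed among themselves. Its log2 fold change against the mean of both pairs was 1.85 (SE 0.65, Benjamini-Hochberg adjusted p = 0.514 in edgeR). CA9, a carbonic anhydrase and direct target of hypoxia-inducible factor, had 17.8 and 23.5 CPM in Ni_3D+14D, 0.689 and 13.3 CPM in replicates 3 and 4, and 4.59 and 8.97 CPM in replicates 1 and 2. DDIT4, an mTOR inhibitor induced by hypoxia, had 84.2 and 69.5 CPM in Ni_3D+14D, 25 and 72.7 CPM in replicates 3 and 4, and 23.6 and 16.2 CPM in replicates 1 and 2, so replicate 4 lay within the nickel libraries. PGK1, a glycolytic kinase, had 680 and 780 CPM in Ni_3D+14D and 495 to 585 CPM in the controls, with a log2 fold change of 0.46 (SE 0.21) against the mean of both pairs. PFKFB3, which sets glycolytic flux, had 96.2 and 77.4 CPM in Ni_3D+14D and 58.8 to 84.4 CPM in the controls.

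Over the whole list of 41 tested hypoxia targets, 21 had both Ni_3D+14D libraries above all 4 controls and 0 had both below, beside 11.1% and 10.9% of all genes. The median log2 fold change was 0.57 against each pair and 0.58 against the mean of both pairs, with 0 called by edgeR. With the spread of the 6 libraries alone edgeR called 13, 9 and 13 up, beside 9.28%, 2.35% and 4.84% of all genes. STC2, a secreted glycoprotein, had 262 and 321 CPM in Ni_3D+14D, 217 and 216 CPM in replicates 3 and 4, and 143 and 140 CPM in replicates 1 and 2. P4HA2, a collagen prolyl hydroxylase, had 234 and 244 CPM in Ni_3D+14D and 136 to 173 CPM in the controls, and BHLHE40, a clock repressor, 49.7 and 50.7 CPM against 24.6 to 32.7 CPM. HIF1A itself had 174 and 206 CPM in Ni_3D+14D, 91.7 and 86.8 CPM in replicates 3 and 4, and 213 and 333 CPM in replicates 1 and 2.

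MT2A, the main metallothionein of these cells, had 461 and 393 CPM in Ni_3D+14D, 276 and 373 CPM in replicates 3 and 4, and 141 and 153 CPM in replicates 1 and 2. MT1X, another metallothionein, had 6.79 and 5.84 CPM in Ni_3D+14D, 7.08 and 7.38 CPM in replicates 3 and 4, and 3.50 and 3.53 CPM in replicates 1 and 2. Metallothionein genes are near-identical copies whose reads may be split between them by the counting, so single members are uncertain. SLC30A1, the zinc exporter induced by metal, had 15.2 and 17.9 CPM in Ni_3D+14D, 27.7 and 22.9 CPM in replicates 3 and 4, and 14.7 and 17.9 CPM in replicates 1 and 2. Against replicates 1 and 2 MT2A had a log2 fold change of 1.54 (SE 0.48), and against replicates 3 and 4 one of 0.39 (SE 0.47), and neither passed with the spread of 14 libraries and the filter.

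**Figure D4:**
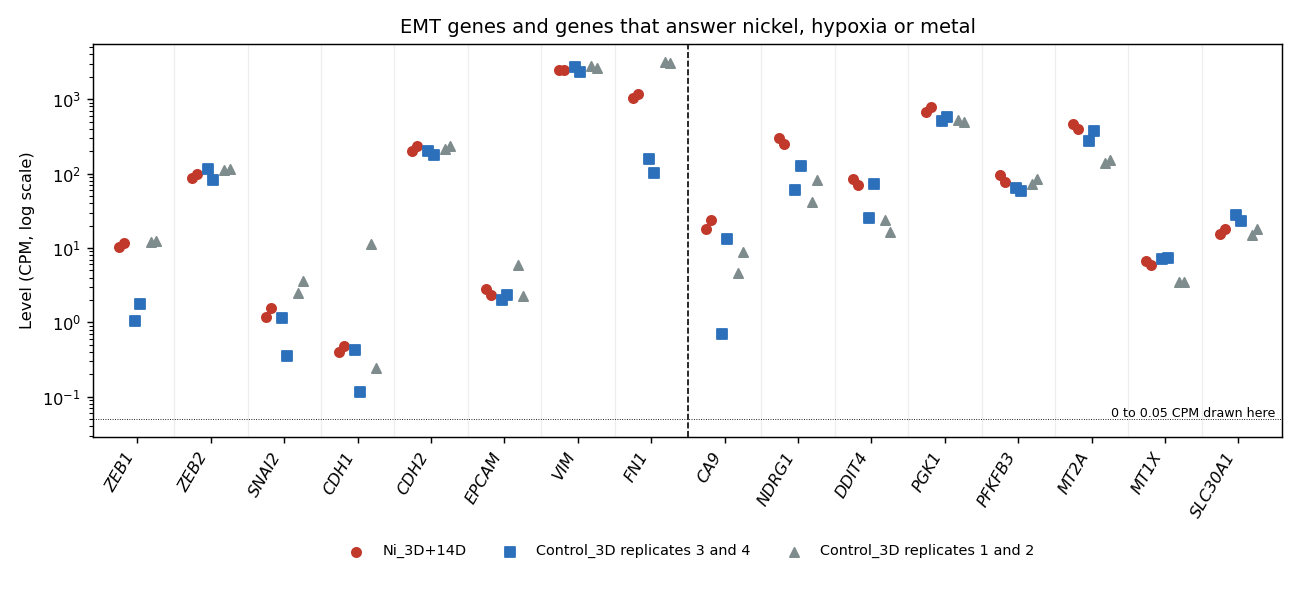
Level in CPM (log scale) in Ni_3D+14D (circles), Control_3D replicates 3 and 4 (squares) and replicates 1 and 2 (triangles), 1 point a library, for EMT genes (left of the dashed line) and genes known to answer nickel, hypoxia or metal (right). ZEB1 and FN1 separate the control pairs, NDRG1 lies above all 4 controls in Ni_3D+14D, and replicate 1 alone is high in CDH1.

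Among stress and signalling lists, heat shock and immediate early genes had negative medians against both pairs. The others given here lay nearer 0 or differed between the pairs. Inflammatory genes of NF-kB (31 tested) had a median log2 fold change of 0.12 against replicates 3 and 4 and 0.78 against replicates 1 and 2. With the spread of 14 libraries edgeR called 0 in both. With that of the 6 libraries it called 2 up and 1 down against replicates 3 and 4, beside 9.28% and 4.97% of all genes. Against replicates 1 and 2 it called 13 up and 0 down, beside 2.35% of all genes up. Against the mean of both pairs the median was 0.53, and this fit called 8 up and 0 down, beside 4.84% and 1.28%. In 11 of the 31 both Ni_3D+14D libraries lay above all 4 controls and in 1 below, beside 11.1% and 10.9% of all genes. ICAM1, a leukocyte adhesion receptor, had 732 and 620 CPM in Ni_3D+14D, 749 and 775 CPM in replicates 3 and 4, and 243 and 242 CPM in replicates 1 and 2. PLAU, a protease of the same list that cuts plasminogen, had 87.6 and 110 CPM in Ni_3D+14D against 40.5 to 69.7 CPM in the 4 controls. Heat shock genes (24 tested) had medians of -0.22 and -0.48 against the same pairs. With the spread of 14 libraries edgeR called 1, DNAJA4, up against replicates 3 and 4, beside 1.18% of all genes. Against the mean of both pairs 22 of the 24 were negative. In 5 of the 24 both Ni_3D+14D libraries lay below all 4 controls, beside 10.9% of all genes. The fit of the 6 libraries alone called 2 up (DNAJA4 and DNAJB6) and 1 down (HSPA4) against replicates 3 and 4. Of all genes this fit called 9.28% up and 4.97% down there. Against replicates 1 and 2 it called 1 down (HSPA8), beside 0.631% of all genes. DNAJA4, a co-chaperone, had 21.4 and 20.4 CPM in Ni_3D+14D, 0.88 and 0.59 CPM in replicates 3 and 4, and 39.9 and 27.0 CPM in replicates 1 and 2. Cell cycle genes (40 tested) had medians of -0.14 and -0.13 and 31 negative values against the mean of both pairs, with 0 called by edgeR. The fit of the 6 libraries alone called 6 down against replicates 3 and 4 (AURKB, BUB1, CCNA2, CDC20, PLK1 and TYMS). Of all genes it called 4.97% down there. It called 0 against replicates 1 and 2, and 2 down (CDC20 and PLK1) against the mean of both pairs, beside 1.28%. Immediate early genes (23 tested) had medians of -0.45 and -0.32, and the controls of a pair differed widely: EGR1, a growth-induced factor, had 26.3 and 37.0 CPM in Ni_3D+14D, 191 and 30.0 CPM in replicates 3 and 4, and 50.5 and 309 CPM in replicates 1 and 2. Glycolysis, oxidative phosphorylation, NRF2 targets, iron genes and ribosomal proteins had medians within 0.2 of 0 against each pair. IGF pathway genes had medians of 1.0 and 0.00 against the pairs.

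**Figure D5:**
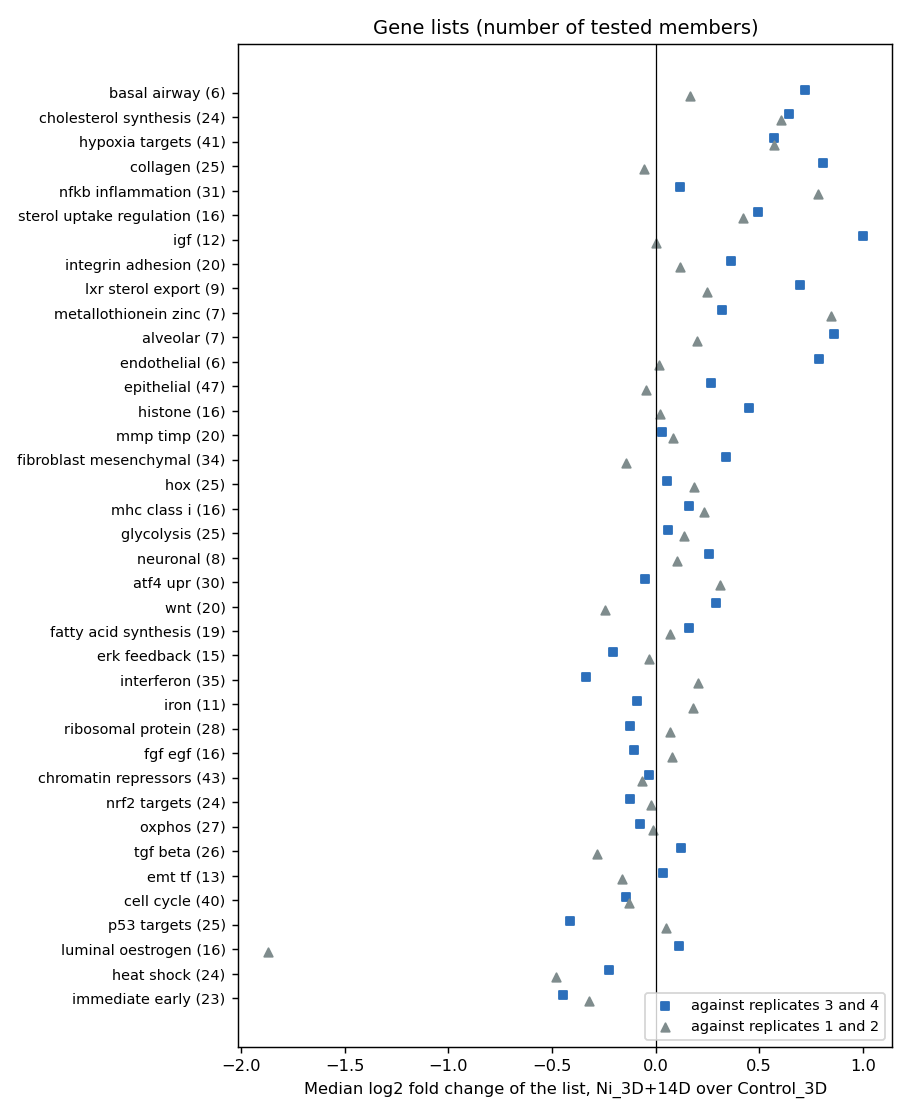
Median log2 fold change of each gene list with 6 or more tested members, Ni_3D+14D over Control_3D replicates 3 and 4 (squares) and over replicates 1 and 2 (triangles), ordered by the median against the mean of both pairs, with the number of tested members in brackets. Cholesterol synthesis and hypoxia targets lie near 0.6 against both pairs, and collagen, IGF and NF-kB lists differ between the pairs.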

How the data were processed

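RNA of BEAS-2B cells was extracted with an RNeasy kit and made into libraries with a TruSeq RNA kit, per the labels' protocols. The authors deposited raw read counts per RefSeq gene for 25411 genes in each library, with an RPKM value beside each count, per the file headers. The authors also deposited a table of mean RPKM, log2 ratios that are shrunken towards 0, and p-values, raw and adjusted. The submitters' processing notes name STAR 2.4, DESeq, DESeq2, GRCh37 and hg19. What each did, the strand and the counting rule are not given in the sources used, so overlapping and antisense genes may share reads. Coordinates of genes are those of the deposited files, and promoters are from RefSeq on GRCh38.p14.

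Counts of all 14 libraries outside the clones were fitted with 1 mean per group, and with Control_3D as 2 means for the pairs, in edgeR 4.0.16 (limma 3.58.1, R 4.3.3). Settings were TMM scaling, filterByExpr (minimum count 10, minimum total 15) and the robust quasi-likelihood F test. The biological coefficient of variation was 29.7% with 6 means and 26.9% with 7, on 8 and 7 residual degrees of freedom. p-values were adjusted by Benjamini-Hochberg over 14927 genes, and an adjusted p under 0.05 was called. Levels are CPM, and fold changes are Ni_3D+14D over Control_3D. A group without reads was set at a floor of 3 reads, and 1 to 3 reads gave a ratio with a 95% interval, both for counting error only. No 2 of the 6 libraries agreed within counting error (lowest chi-square per degree of freedom 11.26). DESeq2 1.42.0, other scaling and filters, the 6 libraries alone, a replicate block and leaving out libraries were alternatives.

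The tests were tried on simulated counts with planted changes before use.

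Named genes were 8 EMT genes, 8 nickel, hypoxia or metal genes, those of cholesterol synthesis (24 in the list), and per comparison the 8 largest called rises and falls at 5 CPM or more with no overlap of libraries. To these came the 5 smallest p in each direction against all 4 controls, and up to 3 called members of a list against the mean of both pairs. Of these, some genes are not reported here. TFF1, ESR1, KRT8, KRT18, INSIG1, SREBF1, SREBF2, FASN, ACLY, ACSS2, COL1A1, COL5A2, DSP, HIF1A, STC2, P4HA2, BHLHE40, ICAM1, PLAU, DNAJA4, EGR1 and called members named beside a list's count fall outside this rule and were chosen after their values were seen. The members, pairs, 40 gene lists and tests were chosen with earlier results of these data known, and the split of the controls into pairs was itself seen in the data.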

Additional observations from a re-analysis of the deposited data

Results flagged for a closer look

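Of 72 named genes, 4 had 1 Control_3D library far from the other 3, by a ratio of its gap to the range of the group that chance passes in about 5% of groups. The 4 of 72 are near that share, so the count itself is not a result. CDH1 was at 11.4 CPM in Control_3D replicate 1 and at 0.117 to 0.421 CPM in the other controls. EPCAM was at 5.97 CPM in the same library and at 2.03 to 2.34 CPM in the others. In this library the oestrogen-responsive genes TFF1 and ESR1 were also present, and their part in these values was not tested. DDIT4 was at 72.7 CPM in Control_3D replicate 4 and at 16.2 to 25 CPM in the others. ZEB2 was at 83.1 CPM in replicate 4, the library with the fewest reads, and at 114 to 116 CPM in the others.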

How the results depend on the processing

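The counts of called genes moved with the test, the filter and the libraries. Against all 4 controls, replicates 3 and 4, replicates 1 and 2, and the mean of both pairs, main counts were 0, 188, 0 and 23. DESeq2 called 16, 569, 29 and 126 genes. Without a filter edgeR called 0, 836, 228 and 429, with the 6 libraries alone 0, 2032, 425 and 872, and at adjusted p under 0.1 by edgeR 0, 376, 0 and 62. RLE scaling gave 0, 181, 0 and 22 and the stricter filter 0, 188, 0 and 24. Leaving out 1 library in turn gave 25 to 49 genes against replicates 3 and 4, with 25 without replicate 3, and 5 to 14 against the mean of both pairs, with 5 without replicate 3. The counts against all 4 controls and against replicates 1 and 2 were 0 in every such fit. In fits chosen after seeing the data, 112 genes were called against replicates 3 and 4 without the other pair, and 100 there and 9 against the mean of both pairs without Control_3D replicate 1 and Ni_3D replicate 1, the libraries with oestrogen-responsive transcripts. No result changed sign past the threshold.

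Replicate numbers 1 and 2 are shared by Ni_3D+14D and Control_3D. The correlation of their deviations was 0.167, and with only these pairs the numbers are no sign of pairing. With the replicate block 0 genes were called against all 4 controls and 0 against replicates 1 and 2. No paired analysis was possible because Control_3D replicates 3 and 4 share no number with Ni_3D+14D, for the comparison with these replicates and for that with the mean of both pairs. With 2 nickel libraries the tests have little precision, and genes not called may still differ.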
